A study of Harpegnathos saltator with 23 samples.

Results

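The genes described here are the 150 gene rows whose expression differed most between brain libraries that had received the same injection and were sequenced in the same run. They were taken from the 10146 gene rows that averaged 1 RPKM or more over 23 libraries, out of 18429 gene rows in all. RPKM divides the reads of a row by its length and by library depth. For each row the log2(RPKM + 1) values of 17 libraries were taken, the mean of each run and peptide group was subtracted, and the rows with the largest standard deviation (SD) of what was left were kept. That SD chose the genes, so it and everything derived from the same residuals are given as description, with no test. The files give the genes by identifier only, the identifiers do not pair with names in the reference table used here, and no role or sequence is given for any of them. For the same reason the tissue could not be checked against brain markers, nor any gene against markers of other tissues of the head.

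Harpegnathos saltator is an ant in which workers can take over reproduction after a period of ritual dueling. Ants that had dueled for 3 days were used on day 6 of this transition and housed 6 to a nest. In each nest 3 ants received 100 ng of synthetic corazonin in the head and 3 a scrambled peptide, called control here, and their brains, without the optic lobes, were taken 1 day later. Poly(A) RNA gave 11 control and 12 corazonin libraries, named below by peptide and replicate number. All groups thus consisted of dueling, injected ants, with no uninjected group analysed here, and the labels give neither age nor colony. The labels name 4 sequencing runs. Run A held control 1 and 2 with corazonin 1 and 2, run B control 3 with corazonin 3, run C numbers 4 to 6 of both, and run D control 7 to 11 with corazonin 7 to 12. The SD was taken over runs C and D. The 6 libraries of runs A and B entered the choice only through the mean level over 23 libraries, and all 150 genes also averaged 1 RPKM or more over the 17 libraries of runs C and D. The labels do not say whether each library came from a separate ant, so the spread described here may be technical in part, and p-values measure only the spread between libraries. They also do not give the nest of each library, so libraries may share a nest, and no fit had a term for it.

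Corazonin is a neuropeptide of insects that neurosecretory cells of the brain release, and in ants of this kind it has been tied to worker behaviour. A bulk RNA measurement sums over all neurons, glia and other cells in the dissected piece. In such data fewer cells of a type and less RNA per cell cannot be told apart.

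Gene reads per library ran from 4665875 to 14567973. Over all gene rows, corazonin 10 and corazonin 9 stood apart, with residual SDs of 0.75 and 0.60 on the log2 scale against 0.25 to 0.46 in the other 15 libraries of runs C and D. Their residuals also ran with gene length in opposite directions, by 0.10 per doubling of length in corazonin 10 and by -0.09 in corazonin 9. Ribosomal RNA took 1.18% to 5.37% of gene and rRNA reads in run D and 0.111% to 0.623% in the other runs. In run A the submitters' library prefix followed the peptide, so prefix and peptide cannot be told apart there. Over all 10146 gene rows, corazonin 10 held the largest squared residual of 39.4% of rows and corazonin 9 of 22.4%. Among the 150 genes these libraries led in 13 and 3. Control 5 and control 10 led in 27 each (6.24% and 3.14% of all gene rows) and corazonin 12 in 21 (3.30%). Corazonin 8 and corazonin 11 led in 14 each (3.93% and 3.17%). Without corazonin 9 and 10 the rule kept 129 of the 150 genes, and without control 5 and 10 it kept 121.

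The residual SD of the 150 genes ran from 0.98 to 2.17 with a median of 1.20, where the median of all gene rows was 0.33 and the middle 50% of rows lay between 0.24 and 0.46. The rule has no gap at its edge. Inside it, Hsal_04527 stood at 0.986, Hsal_02894 at 0.984 and Hsal_02558 at 0.982, and outside it Hsal_06973 stood at 0.979, Hsal_03664 at 0.978 and Hsal_01309 at 0.977. The list held both low and high genes. Of the 150 genes 14 had a mean of at least 100 RPKM, which is 9.33% against 8.31% of all gene rows, and 41 had a mean under 5 RPKM. Reads could be recovered from the RPKM steps, and counting noise accounted for a median of 1.65% of the residual variance. It was above 25% for 9 genes, with 42.7% as the highest. Noise was estimated from the observed reads, so a library at 0 reads added none. These shares may therefore be too low for genes with such libraries. The genes were shorter than the rest, at a median of 983.5 bp against 1621 bp, and 60 of 150 had a library at 0 (40.0% against 7.25%).

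**Figure D1:**
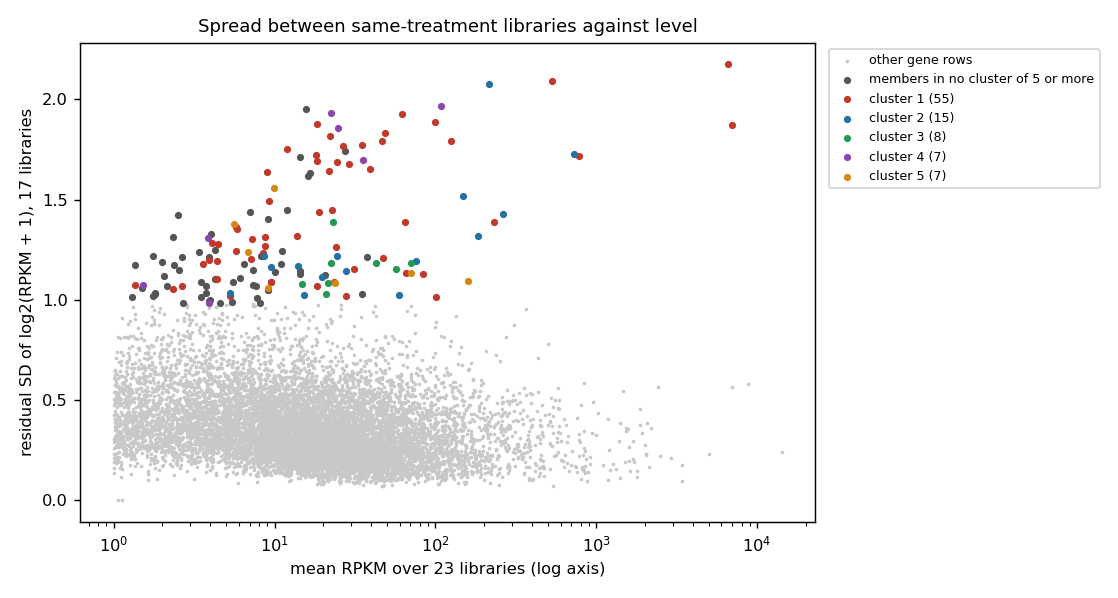
Residual SD of log2(RPKM + 1) over the 17 libraries of runs C and D (vertical axis) against mean RPKM over 23 libraries (log axis), with 1 point per gene row. The 150 genes of the list lie above an SD of 0.98 at every level, and the genes of cluster 1 with the highest means reach 2.17.

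Grouped by the correlation of their residuals (average linkage, tree cut at r = 0.6), 92 of the 150 genes fell into 5 clusters of at least 5 genes, numbered by size, and 58 stayed outside them. Cluster 1 held 55 genes with a mean pairwise r of 0.85, cluster 2 held 15 (0.75), cluster 3 held 8 (0.93), and clusters 4 and 5 held 7 each (0.81 and 0.77). These r values describe the 17 libraries that chose the genes, and their points share runs and library depth. The mean profiles of clusters 1 and 2 were alike at r = 0.68 and those of clusters 1 and 3 at 0.54, while cluster 4 and cluster 1 were at 0.15 and cluster 4 and cluster 5 at -0.10. The list thus holds more than 1 pattern across libraries.

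**Figure D2:**
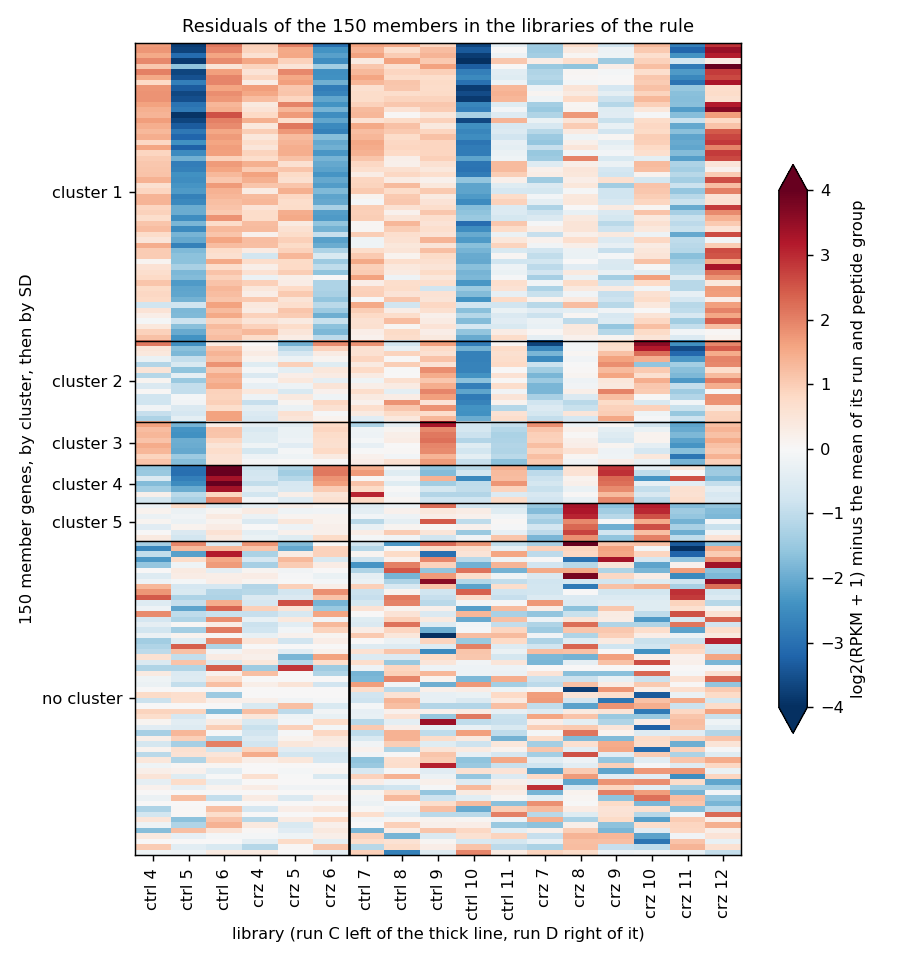
Residuals of the 150 genes (vertical axis, by cluster and then by SD) in the 17 libraries of runs C and D (horizontal axis), with colour giving log2(RPKM + 1) minus the mean of the run and peptide group, clipped at 4 in either direction. Cluster 1 is low in control 5, corazonin 6, control 10 and corazonin 11, cluster 4 is highest in control 6 and corazonin 9, and cluster 5 in corazonin 8 and 10.

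Hsal_05415, a gene row of 2319 bp in cluster 1, had the largest residual SD of all, 2.17. Controls 4 to 6 of run C stood at 21179, 460 and 27726 RPKM and corazonin 4 to 6 at 8051, 16702 and 521 RPKM. In run D the controls 7 to 11 stood at 12953, 12336, 7728, 334 and 3322 RPKM and corazonin 7 to 12 at 797, 3507, 1236, 5234, 317 and 15556 RPKM. Each peptide group of each run thus held libraries below 1000 RPKM beside libraries many times higher, and the peptide groups overlapped in both runs. Over all libraries the controls ranged 83.1-fold, with a median of 7728 RPKM, and the corazonin libraries 354-fold, with a median of 1017 RPKM. At its lowest, in corazonin 3, the gene held 1058 reads, and at its highest, in control 6, it held 497386, so counting noise is small beside these ranges.

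Other genes of the list ran with it, some of them abundant and some far lower. The 5 gene rows whose residuals were most like those of Hsal_05415 over 17 libraries were Hsal_00253 (r = 0.99), Hsal_06551 (0.99), Hsal_06962 (0.98), Hsal_03463 (0.98) and Hsal_11247 (0.98), all of them on the list. Hsal_03463 was the most abundant gene of the list, at 530 to 27357 RPKM in controls (median 10386) and 79.9 to 19487 RPKM in corazonin libraries (median 1958). Hsal_11247 had the second largest SD, 2.09, with 27.0 to 1418 RPKM in controls (median 705) and 9.39 to 2632 RPKM in corazonin libraries (median 147.6). Both peptide groups spanned more than 50-fold for each of these genes and overlapped. Hsal_00253, whose residuals had the highest mean r to the rest of cluster 1, was high and low in much the same libraries at a far lower level, from 1.69 to 96.1 RPKM in controls and from 1.32 to 89.2 RPKM in corazonin libraries.

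Hsal_12315, the third most abundant gene, departed from this pattern in part. In run C it stood at 1072, 25.3 and 1355 RPKM in controls 4 to 6 and at 1162, 685 and 100 RPKM in corazonin 4 to 6. Control 10 of run D stood at 38.2 RPKM, where the other 4 controls of the run lay between 735 and 1249 RPKM and the 6 corazonin libraries between 395 and 1280 RPKM. The libraries low for Hsal_05415 in run C were low here too, but corazonin 7 and corazonin 11, low for that gene, stood at 620 and 404 RPKM. Hsal_01888, Hsal_11244, Hsal_11245 and Hsal_00826 of cluster 1, chosen after their values were seen, departed in a like way. Their residuals were 1.07 to 1.38 in control 11 and -0.22 to 0.28 in corazonin 7. Those of Hsal_05415 were -0.35 and -1.41. The lowest pairwise r within cluster 1 was 0.41, so it is not a single uniform pattern.

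**Figure D3:**
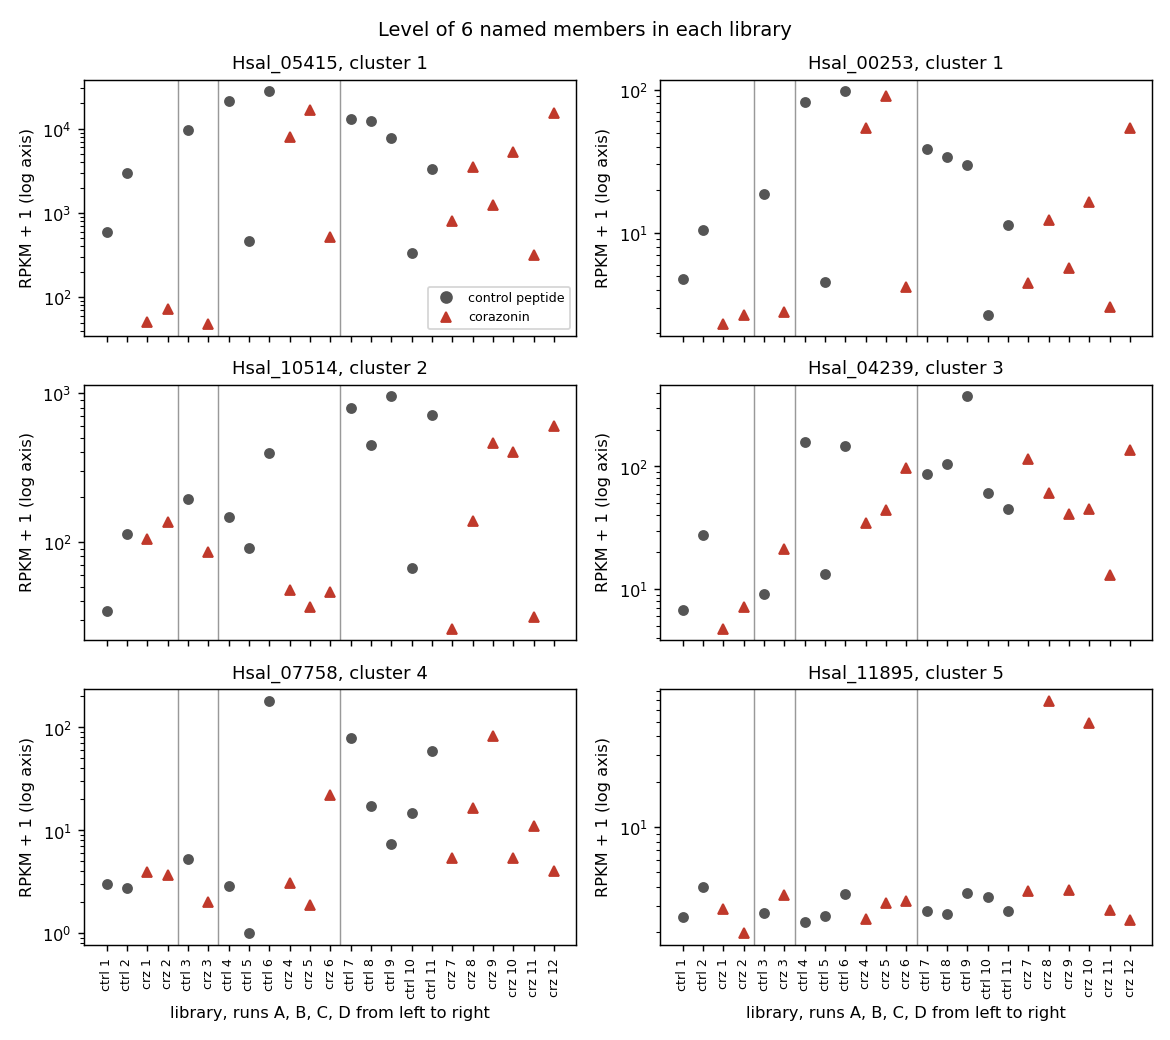
RPKM + 1 (log axis) of 6 genes of the list in each of the 23 libraries, circles for control and triangles for corazonin, with vertical lines between runs A, B, C and D. Hsal_05415 and Hsal_00253 are high and low in much the same libraries, Hsal_07758 is highest in control 6, and Hsal_11895 is high in corazonin 8 and 10 alone.

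The genes of cluster 1 together took a changing share of the transcriptome. Its 55 genes held 0.0461% of gene reads in corazonin 1 and 9.37% in control 6, with a median of 1.55% over 23 libraries. In control 6 most of this share came from Hsal_05415 and Hsal_03463, with 497386 and 163577 of 7735922 gene reads. In corazonin 1 these genes held 1703 and 1163 of 14567973. The share thus says little about the other genes of the cluster where it is high. In run C the share was 8.33%, 0.187% and 9.37% in controls 4 to 6 and 2.90%, 5.84% and 0.240% in corazonin 4 to 6. Controls 5 and 6, the lowest and the highest of the run, had nearly equal rRNA shares of 0.112% and 0.114%. In run D control 10 and corazonin 11 were lowest, at 0.214% and 0.265%, and corazonin 12 was highest, at 6.60%. Their rRNA shares were 4.49%, 1.18% and 3.91%, and the part of rRNA or depth in the pattern was not tested. No library of the 17 held at least 50% of the residual sum of squares of any cluster 1 gene. Control 5 was the lowest library for 26 of the 55 genes (5.90% of all gene rows), control 10 for 12 (1.95%) and corazonin 11 for 9 (0.897%). Corazonin 6 was lowest for 5, a smaller share than its 19.8% of all gene rows. The highest library was corazonin 12 for 24 genes (4.10% of all gene rows), control 6 for 10 (5.18%) and corazonin 10 for 8 (6.33%). Beyond the list, 53 other gene rows correlated with the mean profile of the cluster at r of at least 0.8 and 6 at -0.8 or below.

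**Figure D4:**
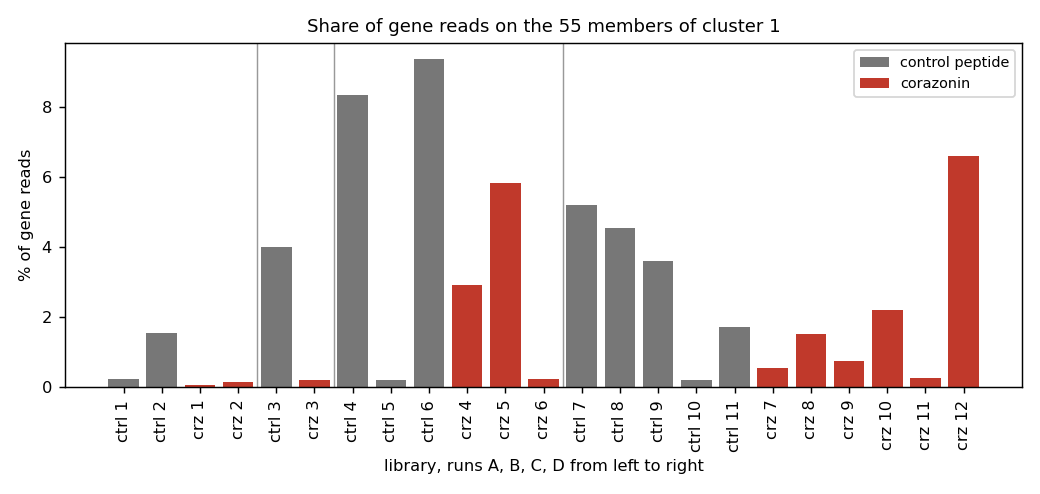
Share of gene reads (percent, vertical axis from 0) on the 55 genes of cluster 1 in each library, grey for control and red for corazonin, with lines between runs. The share runs from 0.0461% in corazonin 1 to 9.37% in control 6, and low and high libraries of both peptides occur in runs C and D. In control 6 most of the share comes from Hsal_05415 and Hsal_03463.

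Cluster 2 held genes of medium to high level (median of means 27.9 RPKM) that were low in control 10, corazonin 11 and corazonin 7. Hsal_10514 stood at 788, 449, 953, 65.7 and 706 RPKM in controls 7 to 11 and at 25.1, 137, 461, 404, 30.0 and 601 RPKM in corazonin 7 to 12. In run C its controls 4 to 6 stood at 145, 89.8 and 396 RPKM, all above corazonin 4 to 6 at 46.6, 35.6 and 45.3 RPKM. Control 10 was lowest among the run D controls by a wide gap. Hsal_13679 ran from 1.75 to 68.5 RPKM in controls (median 19.9) and from 0.679 to 17.2 RPKM in corazonin libraries (median 4.41). Hsal_04752 had the third largest SD of the list, 2.08, with 8.40 to 962 RPKM in controls and 4.25 to 836 RPKM in corazonin libraries. The highest of these were control 7 and corazonin 10. The 15 genes together held 0.0260% of gene reads in corazonin 11 and 1.04% in corazonin 10. The 35 other gene rows at r of -0.8 or below outnumbered the 18 at 0.8 or above.

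The genes of cluster 3 were the most tightly tied, with a lowest pairwise r of 0.83. It includes Hsal_04237, Hsal_04238, Hsal_04239 and Hsal_04240, whose identifiers follow each other, but the files do not say whether numbers follow genome order. Hsal_04239 stood at 157, 12.3 and 147.3 RPKM in controls 4 to 6 and at 33.8, 43.3 and 95.9 RPKM in corazonin 4 to 6. In run D its controls 7 to 11 stood at 85.9, 104, 374, 59.7 and 43.7 RPKM and corazonin 7 to 12 at 114, 60.2, 39.6, 43.6, 12.0 and 134 RPKM. Control 9 was highest and corazonin 11 lowest, and the peptide groups overlapped in both runs. Hsal_11513 had the same highest library, with 344 RPKM in control 9, and 7.50 RPKM in control 5 as its lowest of runs C and D. Over the whole list, 12 pairs of genes had consecutive identifiers, with a median r of 0.91 and 9 pairs at 0.6 or above. Over all 7575 such pairs of gene rows the median r was 0.24, and 22.9% reached 0.6. The r of the 12 pairs comes from the residuals that chose the genes, and many genes of the list share a pattern. The difference thus cannot be put down to numbering, and pairs of the list without consecutive identifiers were not compared.

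Cluster 4 had its highest mean residuals in control 6 and corazonin 9, at 3.26 and 2.19. Hsal_07758 stood at 1.88, 0 and 180 RPKM in controls 4 to 6 and at 2.07, 0.909 and 21.0 RPKM in corazonin 4 to 6. Run D controls 7 to 11 stood at 78.8, 16.4, 6.33, 13.7 and 58.2 RPKM and corazonin 7 to 12 at 4.37, 15.4, 82.4, 4.40, 10.01 and 3.08 RPKM. The highest libraries for Hsal_07758 were control 6, corazonin 9 and control 7, and of these control 6 alone also had the largest cluster 1 share of its run. Over the cluster, control 11 held more of the gene reads than control 7, at 0.0677% against 0.0587%. Hsal_03473 was also highest in control 6, at 956 RPKM, and lowest in control 5, at 4.11 RPKM. Hsal_06552 reached 45.1 RPKM in control 6, from 901 reads, against 0.162 to 8.65 RPKM in the other libraries.

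Among the 17 libraries, cluster 5 had its highest mean residuals in corazonin 8 and corazonin 10, and its 7 genes held 0.270% and 0.238% of gene reads there. Corazonin 1 of run A followed at 0.119%, and the other libraries held 0.0151% to 0.0788%. Hsal_11895 stood at 67.8 and 47.8 RPKM there, against 0.961 to 3.02 RPKM in the other 21 libraries. Hsal_04557 stood at 55.2 and 46.7 RPKM in the same libraries, against 0.107 to 2.68 RPKM in the others. Not all 7 genes kept to these libraries. Hsal_11308, chosen after its values were seen, was highest in control 9, at 320 RPKM, against 276 and 202 RPKM in corazonin 8 and 10. Corazonin 10 is also the library that stood farthest apart over all gene rows, and 79 other gene rows followed the mean profile of the cluster at r of at least 0.8 and 56 ran against it at -0.8 or below. What part that library's general departure has in the cluster was not tested.

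The 58 genes outside the clusters were short, with a median length of 371.5 bp, and low, with a median of means of 5.01 RPKM, and 46 of them had a library at 0. Of the 10 genes with at least 50% of their residual sum of squares from 1 library, 9 were among them. Hsal_00907 had the largest SD of these genes, 1.95. It ran from 0.179 to 27.3 RPKM in controls (median 1.97) and from 0 to 158 RPKM in corazonin libraries (median 5.64), the highest being corazonin 8 with 613 reads and the lowest corazonin 5 and 11 with 0.

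The libraries of runs A and B, whose spread had no part in the choice, were compared for the same genes. Control 1 and control 2 differed at least 2-fold on the log2(RPKM + 1) scale for 83 of the 150 genes (55.3%), where the share of all gene rows was 18.5%. Of these, 75 were higher in control 2 (background 11.2%) and 8 lower (background 7.37%). Corazonin 1 and 2 differed 2-fold for 50 of the 150 genes (33.3%, background 3.48%), with 36 higher in corazonin 2 (background 1.84%) and 14 lower (background 1.64%). Each is a single pair of libraries, so these differences have no replicate. In the control pair the count was 38 with a pseudocount of 10 (25.3%, background 5.33%), 102 with 0.1 (68.0%, background 23.7%) and 54 at 3-fold (36.0%, background 5.39%). In the corazonin pair it was 19 (12.7%, background 0.463%), 69 (46.0%, background 6.78%) and 27 (18.0%, background 0.749%). In the control pair 35 of 55 genes of cluster 1 were higher in control 2 and 0 lower, with 12 of 15 in cluster 2 and 8 of 8 in cluster 3, while in cluster 4 it was 2 of 7 and in cluster 5 it was 3 of 7. In the corazonin pair 18 of 55 genes of cluster 1 were higher in corazonin 2 and 0 lower. Cluster 2 had 7 of 15 higher and 2 lower, cluster 3 had 1 of 8 higher, cluster 4 had 0 of 7 either way, and cluster 5 had 3 of 7 lower and 0 higher.

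In run B, with 1 library of each peptide, 85 of the 150 genes differed at least 2-fold (56.7%, background 9.04%). Corazonin 3 was lower than control 3 for 72 (background 2.96%) and higher for 13 (background 6.08%). Cluster 1 made up 51 of the 72, with a median log2 difference of -1.84 over its 55 genes, and cluster 2 another 9. Cluster 3 went the other way, with 4 of 8 genes at least 2-fold higher in corazonin 3 and 0 lower. Hsal_05415 stood at 9765 RPKM in control 3 and 47.2 RPKM in corazonin 3, a log2 difference of -7.66. With 1 library of each peptide, peptide and library cannot be told apart in run B.

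**Figure D5:**
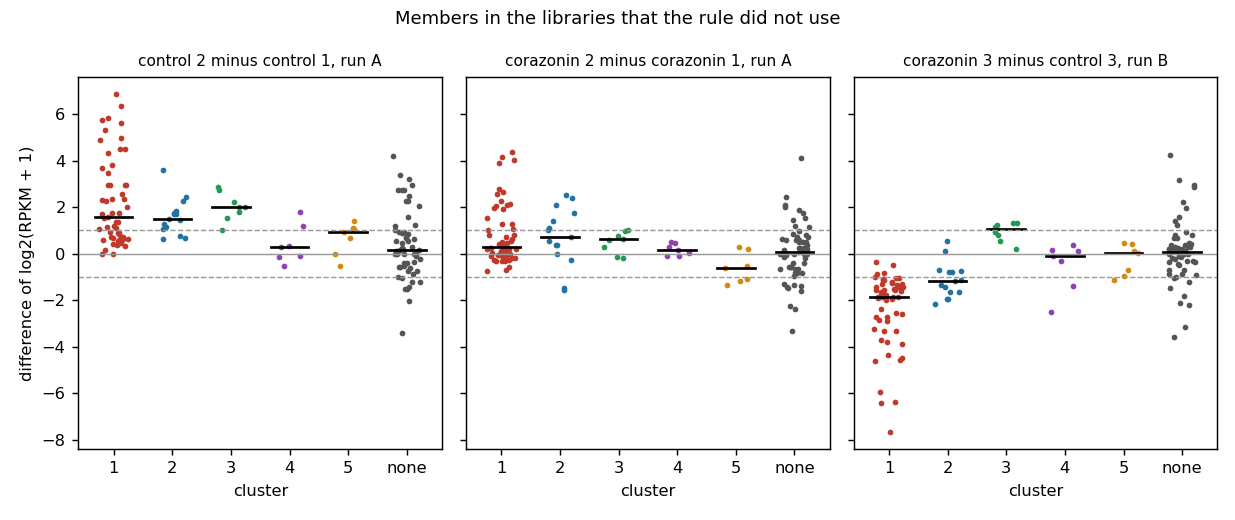
Difference of log2(RPKM + 1) between 2 libraries (vertical axis) for each of the 150 genes by cluster, in the control pair and the corazonin pair of run A and in the 2 libraries of run B, whose spread the rule did not use. Bars are medians and dashed lines mark a 2-fold difference; in run B all 55 genes of cluster 1 lie below 0.

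Runs A and B together set 3 corazonin against 3 control libraries for these genes. Hsal_05415 stood at 591, 2937 and 9765 RPKM in controls 1 to 3 and at 50.4, 71.6 and 47.2 RPKM in corazonin 1 to 3. Hsal_03463 stood at 611, 3093 and 10386 RPKM in the controls and at 79.9, 170 and 125 RPKM in the corazonin libraries. For both genes every corazonin library of these runs lay below every control, and the controls themselves spanned more than 16-fold. Such a separation occurred for 28 of the 150 genes, 27 of them in cluster 1 (49.1% of its 55 genes), against 2.51% of all gene rows, and the opposite separation for 2 (background 3.27%). Genes of cluster 1 move together between libraries, so neither the 27 nor the limma counts below are counts of independent genes. In limma over these 6 libraries with run as a term, 0 genes of the list passed an adjusted p of 0.05, and 32 had an unadjusted p under 0.05 (background 3.87%). In cluster 1 these were 27 of 55, all lower in corazonin (background 1.35%), with a median log2 fold change of -1.36. The count rests on few libraries. Leaving out 1 library gave 45 without control 1, where 16.3% of all rows were lower at that threshold. It gave 18 without control 2 (all rows 0.941%) and 14 without control 3 or corazonin 3 (all rows 0.608%), which are in effect the same fit. It gave 25 without corazonin 1 (all rows 0.558%) and 23 without corazonin 2 (all rows 1.32%). In runs C and D alone 0 of the 55 genes had an unadjusted p under 0.05 by limma (2.94% of all rows). The rule chose the genes for their wide spread in those libraries, which widens the standard error of that fit. That 0 thus cannot be set against the count of runs A and B. Low and high libraries of both peptides occurred in runs C and D. Whether the run sets differ beyond the spread was addressed only by the interaction test given below, which leaves out run B.

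Over all 23 libraries the peptide comparison asked whether corazonin moved the level of these genes. The group means had been subtracted by the rule, so the difference itself was not used, but the spread behind each standard error (SE) was, and it is wide. The median SE was 0.48 for the 150 genes against 0.15 over all rows. By limma with run as a term and Benjamini-Hochberg adjustment over 10225 rows, 0 of the 150 genes passed an adjusted p of 0.05 (background 0%), the smallest being 0.634. At an unadjusted p under 0.05 there were 15 of 150 (background 7.33%), of which 13 were lower in corazonin (background 4.07%) and 2 higher (background 3.27%). A negative fold change was found for 111 of 150 (74.0%, background 54.4%), with a median of -0.41 against -0.02 over all rows. The 15 rest on single libraries in part. Without control 10 there were 34 genes under that p (22.7%, background 7.74%), without control 5 there were 32 (21.3%, background 10.04%) and without corazonin 12 there were 31 (20.7%, background 10.9%). Without control 3 or corazonin 3 there were 9 (6.00%, background 3.85% and 3.84%), and without corazonin 6 there were 8 (5.33%, background 4.83%). In another 7 fits whose count fell by more than 1.5 times the share was below the background. It was 8 genes (5.33%) without control 7 (background 6.79%), control 11 (6.09%) or corazonin 7 (8.27%). It was 7 genes (4.67%) without control 6 (background 4.97%), control 8 (10.4%) or corazonin 11 (6.89%), and 6 genes (4.0%) without control 9 (background 6.10%). Whether the list exceeds the background thus depends on single libraries. Genes of a cluster move together from library to library, so such counts are not counts of independent genes. At this spread a p that misses the threshold does not show that the peptide groups were alike.

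The clusters differed in what the peptide comparison gave. Cluster 2 had a median log2 fold change of -1.05, with 15 of 15 genes negative and 8 at an unadjusted p under 0.05. The share of all rows at that p was 7.33%. The 8 were 3 without control 6 or control 9 (all rows 4.97% and 6.10%). They were 4 without control 7, control 8, control 11, corazonin 4, corazonin 7 or corazonin 11 (all rows 5.07% to 10.4%). They were 5 without control 3, corazonin 3, corazonin 6 or corazonin 8 (all rows 3.84% to 6.11%). They rose to 11 without control 10 (all rows 7.74%) and to 10 without corazonin 2 (all rows 8.14%). The median of the cluster stayed between -1.29 and -0.86. By run its medians were -1.38 in run C and -1.57 in run D, -1.18 in run B, and 0.98 in run A. The sign in run A thus went against the other runs. Hsal_08366, a gene of cluster 2, had the smallest limma p of the genes with a negative fold change. It ran from 4.42 to 159 RPKM in controls (median 29.7) and from 3.94 to 41.9 RPKM in corazonin libraries (median 8.75), with overlap. By limma it differed by -1.44 ± 0.48 (SE) on the log2 scale, at an unadjusted p of 0.00686 that became 0.634 after adjustment. In run A it was higher in corazonin, by 0.79, where runs B, C and D gave -1.65, -1.72 and -2.07. Hsal_13679 gave -1.51 ± 0.52 (SE) and the same adjusted p of 0.634 by limma.

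In cluster 1 the median fold change was -0.50, with 53 of 55 genes negative and 4 at an unadjusted p under 0.05. The 4 were 21 without control 5 (all rows 10.04%) and 19 without control 10 (all rows 7.74%) or corazonin 12 (all rows 10.9%). They were 10 without corazonin 5 (all rows 7.36%) and 1 without control 3 or corazonin 3 (all rows 3.85% and 3.84%). They were 2 without control 2, 4, 6, 7 or 8 or corazonin 1, 2, 6 or 11 (all rows 4.68% to 10.4%). By run the medians were -1.16, -1.84, -0.25 and -0.46 in runs A to D. Hsal_05415 differed by -2.09 ± 0.92 (SE), with the same adjusted value of 0.634 by limma, and Hsal_12315 by -0.10 ± 0.79 (SE). Fold changes in the cluster ran from -2.09 to 0.10, so its median covers unlike genes. Cluster 3 had a median of -0.54 (8 of 8 negative, 0 at an unadjusted p under 0.05), with 1.06 in run B. Its median was -0.28 without control 9, and 2 genes were under that p without control 5. Cluster 4 had a median of -0.77 (7 of 7 negative, 0 at that p), and of -0.33 without control 6. Cluster 5 had a median of 0.58, with 0 of 7 negative and 1 at an unadjusted p under 0.05, and its run D median of 1.44 stood beside 0.81, 0.04 and 0.06 in runs A to C. Its median was 0.36 without corazonin 8 and 0.35 without corazonin 10. The 1 gene at that p was lost in 14 of the 23 fits that leave out 1 library, those 2 included. Genes outside the clusters had a median of 0.01, with 28 of 58 negative.

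The authors' deposited table of their own corazonin comparison gives a p-value for all 150 genes. A p under 0.05 was listed for 19 of them (12.7%) in the authors' deposited table, against 2.57% of the gene rows, and 1 had an adjusted p under 0.05 (background 0.0197%). That gene was Hsal_04557. The authors' deposited table lists it at a log2 difference of 1.87 (adjusted p = 0.0285), and the only corazonin libraries above 2.68 RPKM were corazonin 8 and 10. A 2-fold difference was listed for 16 genes in the authors' deposited table (background 0.365%). Among genes with a p under 0.05 in the authors' deposited table were 0 of 55 in cluster 1, 7 of 15 in cluster 2, 4 of 7 in cluster 4 and 5 of 7 in cluster 5. The rule chose these genes for wide spread between libraries, which favours large mean differences and enters the p-values. Their shares above the background thus cannot be read as an effect of the peptide. The authors' deposited table and the limma comparison share libraries, so neither is independent of the other. The other gene row that passed after adjustment in the authors' deposited table, Hsal_09096.2, ranked 251st by residual SD, at 0.86, and is not on the list.

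Differences between runs were also outside what the rule used. In limma's F test over the run terms 46 of the 150 genes (30.7%) passed an adjusted p of 0.05, where the share of all rows was 73.9%. The wide residual spread that chose the genes enters this test. Of the 150 genes 13 averaged less than 1 RPKM outside a single run, so they passed the level filter through that run alone. A run difference was favoured for these by the filter, and 5 of the 46 were among them. In cluster 3 it was 6 of 8 genes, in cluster 1 it was 16 of 55 and in cluster 4 it was 0 of 7. Hsal_00745 had the largest F of the list, but it is 1 of those 5, having passed the filter through run D, so its levels are given with no test. It stood at 0 RPKM in all 6 libraries of run C, at 0 to 1.75 RPKM in runs A and B, and at 8.86 to 45.9 RPKM in 10 of 11 run D libraries, with corazonin 8 at 0. The gene is 264 bp long and held at most 57 reads in a library. Run D is also the run with the high rRNA share, and its part in this difference was not tested. Hsal_09986, of 124 bp, was next (adjusted p = 2.48e-05 by limma). It stood at 20.9 to 33.5 RPKM in runs A and B, at 0 to 3.59 RPKM in run C and at 0 to 31.7 RPKM in run D, from at most 54 reads in a library.

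The group by run interaction, over runs A, C and D, asked whether the peptide difference varied with run. The wide residual spread that chose the genes enters this test too. By limma 0 of the 150 genes passed an adjusted p of 0.05 (background 0%) and 1 had an unadjusted p under 0.05 (background 0.998%). For Hsal_05415 the interaction p was 0.316 before adjustment by limma. Hsal_11322 was the gene under that threshold, and it also had the smallest limma p among genes with a positive peptide fold change. In run A it stood at 3.54 and 1.29 RPKM in controls 1 and 2 and at 0.577 and 0.528 RPKM in corazonin 1 and 2. In run D controls 7 to 11 stood at 1.71, 2.06, 2.20, 2.05 and 1.53 RPKM and corazonin 7 to 12 at 46.8, 6.22, 28.4, 2.90, 34.1 and 18.8 RPKM. All run D corazonin libraries lay above all run D controls, and both run A corazonin libraries lay below both controls, from 9 to 36 reads. In run C the groups overlapped, at 4.31, 0.213 and 7.31 RPKM in controls and 1.13, 4.70 and 6.93 RPKM in corazonin libraries. Over all runs it differed by 1.13 ± 0.49 (SE) at an unadjusted p of 0.0305 by limma, or 0.634 adjusted. The interaction p of 0.00857 had an adjusted value of 1.0.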

How the data were processed

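The deposited table gives RPKM for each gene row in 23 brain libraries, made by the authors from poly(A) RNA that kept strand information, per the file headers and the labels. STAR 2.5.0b and DESeq2 appear among the tools in the submitters' processing notes, for steps of the authors. Genome build, annotation and counting tool: not given in the sources used here. A second table, the authors' deposited comparison, holds per gene a log2 fold change, p-values before and after adjustment, and the mean signal of the libraries, per the file headers. Reads were recovered from the steps of the RPKM values, and 278437 of 278437 gene values came out whole within 0.01 reads. They describe counting error only, since PCR copies were not marked by molecular identifiers.

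All 10225 rows averaging 1 RPKM or more, which include some small RNA and rRNA rows, entered limma (version 3.58.1, R 4.3.3). The values were log2(RPKM + 1), run was a term, eBayes used trend and robust settings, and p-values had Benjamini-Hochberg adjustment. Fold changes on this scale understate those of low genes. The steps were tested on simulated data. Other steps used Python 3.11.15 with pandas 2.3.3, NumPy 2.4.6 and SciPy 1.17.1. The deposited unit is RPKM, and no count test was run, although reads were recovered. Where cluster 1 is high, up to 9.37% of reads, it lowers the RPKM of other genes, and median-ratio scaling (factors 0.864 to 1.15) was an alternative.

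Named genes were the 6 with the largest SD, the 2 per cluster with the highest mean r to it, the 3 most abundant, calls of the authors' deposited table, the smallest limma p in each direction and the 2 largest run F. The members and lists were chosen with earlier results of these data known. Alternatives covered pseudocount, filter, scaling, run term, weights, replicate block and left-out libraries.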

Additional observations from a re-analysis of the deposited data

Results flagged for a closer look

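Control 10 was far below the other 4 controls of run D for 3 genes named above. The gap to the nearest library, as a share of the range of the 5 controls on the log2(RPKM + 1) scale, was 0.713 for Hsal_11247, 0.718 for Hsal_10514 and 0.847 for Hsal_12315. Corazonin 8 was the lowest of the 6 run D corazonin libraries for Hsal_00745, at 0 RPKM where the others ran from 13.0 to 45.9 RPKM, with a gap of 0.686 of the range. In all 40 groups of libraries were examined in this way and 4 had so wide a gap. In values that were not selected, chance gives about 1 in 20. These genes were chosen for their spread in the same libraries, which favours such gaps, so that rate does not hold here and the gaps are given as description, with no test. Hsal_11247 and Hsal_12315 belong to the same cluster, so these are not independent.

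Hsal_11322 had a corazonin difference of 2.58 on the log2 scale in run D, where all corazonin libraries lay above all controls, and of -1.06 in run A, where both lay below both controls. The limma interaction p was 0.00857 before adjustment and 1.0 after it.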

How the results depend on the processing

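The list depends on the scale: the rule kept 87 of the 150 genes with a pseudocount of 0.1, 82 with 10 and 91 from run C alone, against at least 133 with 1 library left out. With the level taken over runs C and D, an alternative chosen after seeing the data, it kept 149. Run D alone kept 123, the median absolute residual 110 and median-ratio scaling 145. With the 150 genes held fixed, 54 or 55 genes of cluster 1 stayed together in all 24 alternatives of the clustering. Other genes joining them were not counted. These alternatives left out run C or run D alone, the median absolute residual and the changed level filters. Lists chosen anew were not clustered, so whether cluster 1 would return in them was not examined. Genes with at least 50% from 1 library numbered 8 to 15 with 1 library left out. In the peptide comparison 1 row, not on the list, passed in runs C and D only, and 0 to 1 with 1 library left out. Genes of the list at an unadjusted p under 0.05 (15) were 6 with no run term (4.0%, all rows 1.32%), 5 without run D (3.36%, all rows 16.9%), 32 in runs A and B only (21.6%, all rows 3.87%), 23 with array weights (15.3%, all rows 16.9%), and 6 (without control 9) to 34 (without control 10) with 1 library left out. They were also 32 without control 5 and 31 without corazonin 12. With the replicate block they were 32 (21.3%, all rows 10.8%); same-numbered libraries did not all deviate together (2 of 9 distinct values over 0.1, -0.56 to 0.47, the run A pairs giving 1 value), so this is no paired result. Those called between runs (46) were 14 without run D (9.40%, all rows 32.8%) and 87 with array weights (58.0%, all rows 82.3%). With 1 library left out they were 34 to 66, where the share of all rows ran from 70.6% to 77.1%. Genes of the list with an unadjusted interaction p under 0.05 were 1 to 8, most without control 10. The share of all rows at that p was taken in the main fit only (0.998%). The control pair of run A gave 38 with a pseudocount of 10 and 54 at 3-fold, and the corazonin pair 19 and 27. Cluster 1 genes lower in runs A and B ranged from 14 to 45, where the share of all rows ran from 0.558% to 16.3%. Hsal_11322 reversed to -0.19 without run D and -0.67 in runs A and B only. The run test of Hsal_09986 was lost without run C (adjusted p = 0.138 by limma). Apart from fewer libraries in those fits, the cause was not tested.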
